A study of Mus musculus with 8 samples.

Results

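Phosphatidylcholine, phosphatidylethanolamine and phosphatidylserine are the main phospholipids of animal membranes, and 10 genes that encode the enzymes building them were followed in mouse 3T3-L1 adipocytes treated with a PI3K inhibitor, with a fatty acid or with both. The genes were taken by name for their place in the pathway, with earlier results of these data known, as Chka, Chkb, Etnk1, Pcyt1a, Pcyt2, Chpt1, Cept1, Selenoi, Ptdss1 and Ptdss2. They are 10 of the 43629 genes in the count table, all 10 were matched by gene ID, and all 10 passed the filter on low counts.

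3T3-L1 is an established line of mouse fibroblasts that turns into fat cells when given insulin, dexamethasone, isobutylmethylxanthine and rosiglitazone, and all cultures had this mixture. Treatment began on day 8 after induction and lasted 24 h, in 4 groups of 2 libraries each. The cells were left untreated, or received 2 µM A66, a small molecule that blocks the PI3K subunit p110α, or 0.5 mM palmitate, a saturated fatty acid carried on serum albumin (BSA) at 3 molecules per BSA, or palmitate and A66 together. The labels name untreated cells as the control, while the study's methods speak of DMSO as the vehicle and of another dose of A66. Neither names albumin alone as a control for palmitate, and the part of albumin in the palmitate differences was not tested. Both libraries of a group came from the same cell line, and the methods call the repeats biological without saying how they were separated. The counts were not used here to check which libraries had received the inhibitor, so every direction below rests on the treatment labels. Whether the A66 and untreated labels were exchanged was not tested, and such an exchange would reverse the sign of A66 against untreated.

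Polyadenylated RNA was sequenced, and the values are whole-number counts of reads per gene. Library totals lay between 42247091 and 57529803 counts, so that 3 counts, taken as the floor of detection, were worth 0.0521 to 0.0710 CPM (counts relative to the total of their library), which covers counting error only. The CPM values of the 10 genes below are also adjusted with the TMM factors of edgeR. Replicates differed by more than counting noise, with a chi-square of 6.15 to 8.99 per gene against an expected 1, and the biological coefficient of variation was 0.0377 in the 4 libraries without palmitate and 0.0406 in all 8. The adipocyte label was checked against 10 markers, among them Adipoq, Fabp4 and Plin1, and 10 of 10 exceeded 1 CPM in every library. Of the 8 preadipocyte or fibroblast markers, 7 had at least 3 counts and 5 exceeded 1 CPM in every library, with Pdgfrb at 190.0 to 219 CPM and Pdgfra at 89.0 to 108 CPM when scaled by library size alone, while Dlk1 had 0 counts. Of the 5 macrophage markers, Cd68 had 109 to 286 counts and Csf1r 6 to 15, while Adgre1 had 0, and of the 4 endothelial markers Pecam1 had 20 to 45 counts and Tek 11 to 29, while Kdr had 0.

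In the pathway described by Kennedy, choline or ethanolamine is first phosphorylated by a kinase, then joined to CTP by a cytidylyl transferase, and lastly transferred to diacylglycerol by a phosphotransferase in the membranes of the endoplasmic reticulum or the Golgi. The choline arm ends in phosphatidylcholine and the ethanolamine arm in phosphatidylethanolamine, and the cytidylyl transferase step is known as the slow step of each. Phosphatidylserine is then made by exchange of the head group of these products for serine. In adipocytes phosphatidylcholine and phosphatidylethanolamine also form the single layer of lipid around the fat droplet, and diacylglycerol is shared with the synthesis of triglyceride.

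Promoter sequences (RefSeq, GRCm38.p6, 250 bases before to 50 bases after the start site) were found for 8 of the 10 genes, and Pcyt2 and Ptdss1 were not among them. Motifs of 4 kinds were searched on both strands, the GC box GGGCGG, the CCAAT box CCAAT, the sterol regulatory element TCACNCCAC and the E-box CACGTG. The 8 genes had 12 windows, since Cept1 and Pcyt1a had 3 each, and shares were compared window by window with the 32851 windows of the table. The GC box was present in 10 of the 12 (83.3%), against 35.7% of all windows, and in at least 1 window of each of the 8 genes. The motif is made of G and C, and 10 of the 12 windows had a GC content of 61.7% to 75.3%, with Chkb at 51.7% and 1 window of Cept1 at 27.3%, against a median of 52.7% over all windows. The part of base composition in these shares was not tested. The CCAAT box was present in 5 of the 12 (41.7%), against 37.4%, in 1 window each of Chka, Chkb, Chpt1, Selenoi and Cept1, of which Cept1 had it in 1 of its 3 windows. The sterol regulatory element was found in 2 windows of Pcyt1a that overlap each other, against 1.24% of all windows, and the E-box in 0 of the 12, against 7.15%. The promoter of Chpt1 is shown because Chpt1 was the gene of these 8 that passed the test in a comparison below, and that of Pcyt1a because it carries the sterol element. In the Chpt1 promoter (chr10:88503921-88504220, minus strand) capitals mark 1 CCAAT box, with its first base at -225 from the start, and 5 GC boxes on the opposite strand (CCGCCC), the nearest at -20. In the first of 3 RefSeq windows of Pcyt1a (chr16:32430671-32430970, plus strand) capitals mark the sterol element, at -116 from the start, and 2 GC boxes that overlap each other. A match of letters is a description of the sequence and does not show that a factor binds there.
Chpt1: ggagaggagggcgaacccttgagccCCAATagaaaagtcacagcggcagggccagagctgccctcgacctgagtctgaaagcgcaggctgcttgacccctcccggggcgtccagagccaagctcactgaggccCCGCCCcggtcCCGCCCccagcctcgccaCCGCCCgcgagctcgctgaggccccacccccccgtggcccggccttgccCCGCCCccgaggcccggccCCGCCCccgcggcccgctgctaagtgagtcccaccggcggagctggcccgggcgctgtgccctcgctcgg
Pcyt1a: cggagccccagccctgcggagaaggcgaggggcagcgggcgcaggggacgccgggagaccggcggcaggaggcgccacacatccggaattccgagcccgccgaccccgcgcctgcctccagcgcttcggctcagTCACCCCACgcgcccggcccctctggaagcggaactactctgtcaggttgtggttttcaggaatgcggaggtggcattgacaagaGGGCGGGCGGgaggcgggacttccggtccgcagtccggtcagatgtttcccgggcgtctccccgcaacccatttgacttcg

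To compare levels between genes, CPM was divided by the length of the longest coding transcript in kb. In untreated cells the highest level per kb was that of Chpt1, at 78.2 ± 1.81 CPM per kb (SD, n = 2), followed by Pcyt2 at 57.2 ± 1.77 and Etnk1 at 38.6 ± 0.646. The ethanolamine arm thus had its cytidylyl transferase gene at a higher level per kb than the choline arm, in which Pcyt1a stood at 21.8 ± 0.680 CPM per kb. Before division by length these genes were close, at 107.6 CPM for Pcyt2 and 104.5 CPM for Pcyt1a, so the gap rests on the lengths used. Per kb of merged exons they stood at 24.8 and 14.1. Chka stood at 31.2 and Chkb at 23.6 CPM per kb, and the lowest was Ptdss2 at 11.4 ± 0.468. Selenoi, at 18.3 ± 0.220 CPM per kb, and Ptdss1, at 18.2 ± 0.538, overlapped in their libraries and have no order. With palmitate, the libraries of Chpt1 (69.8 ± 1.60 CPM per kb) and Pcyt2 (66.2 ± 3.75) overlapped, which they did not in the other 3 groups. The order depends on the length used, since Chka moved from rank 4 to rank 10 when the merged length of all exons was the divisor, while Chpt1 and Pcyt2 kept ranks 1 and 2 in every group. All 10 genes together held 0.119 to 0.127% of the counts of a library.

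**Figure D1:**
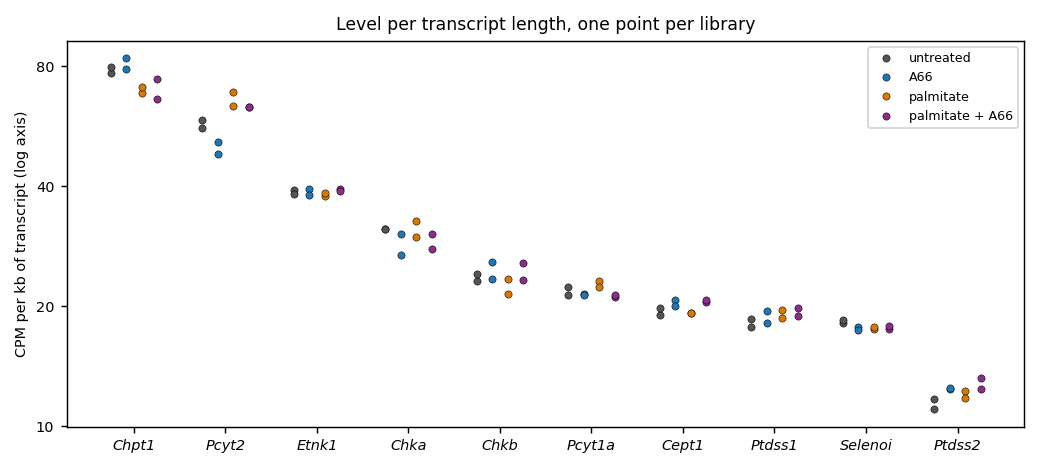
Level of each gene in CPM per kb of its longest coding transcript (log axis), with 1 point per library and the 4 groups in colour, genes ordered by their mean level. Chpt1 and Pcyt2 lead, their points meet in the palmitate group, and Ptdss2 is lowest.

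Between groups the Pcyt2 mRNA passed the test most often. By the treatment labels, it was lower with A66 than without (-0.20 on the log2 scale) and higher with palmitate than without (0.21). It was also higher when both were given than with A66 alone (0.34). These differences are not independent, since the first and last share the A66 libraries and the first and second share the untreated libraries. Chpt1 was lower when both were given than with A66 alone (-0.21). The other 8 genes passed the test in none of the comparisons at an adjusted p under 0.05 (edgeR's quasi-likelihood test, Benjamini-Hochberg adjustment over all genes tested), by which 1.84% of all genes passed for A66, 1.17% for palmitate, 2.81% for A66 in palmitate-treated cells and 2.73% for palmitate in A66-treated cells. RNA was taken from whole cultures, so that a lower value from fewer cells of a type and from less RNA per cell cannot be told apart.

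**Figure D2:**
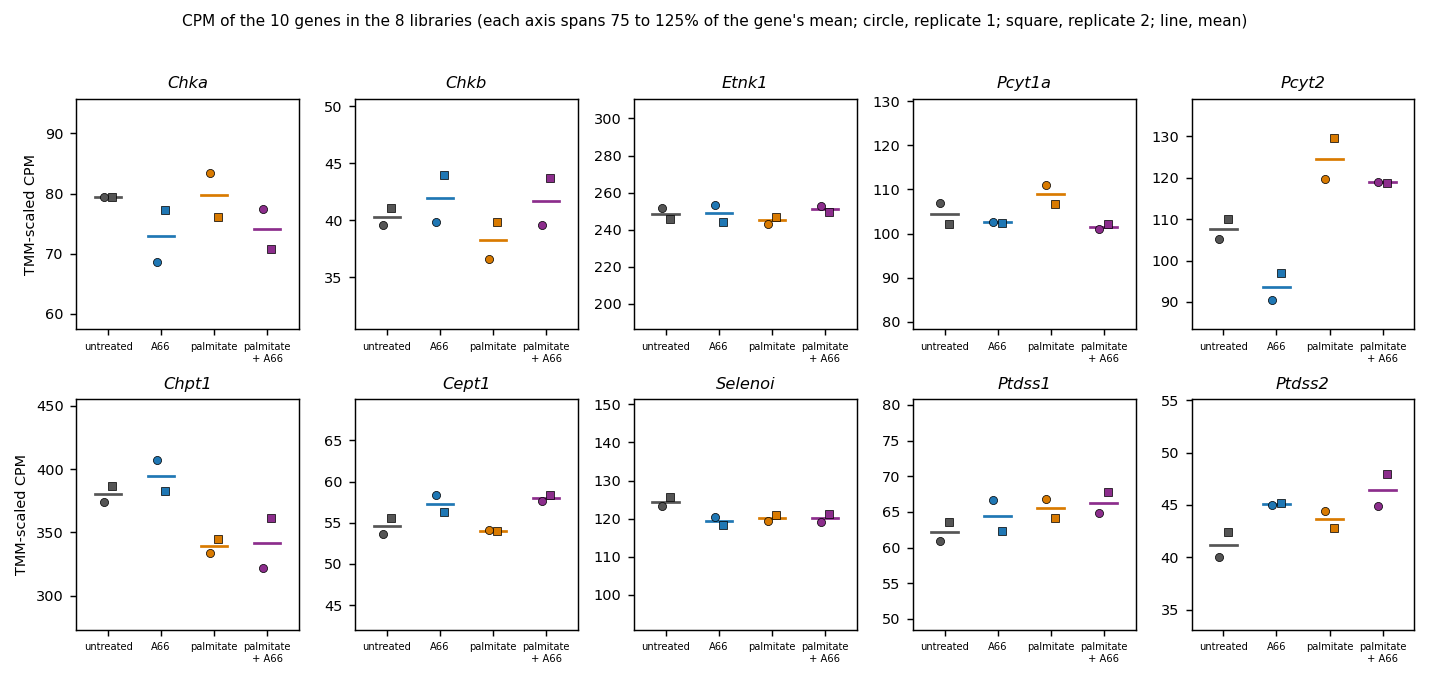
CPM of each gene in the 8 libraries, by group, with circles for replicate 1, squares for replicate 2 and a line at the mean (each vertical axis is scaled around the gene's own mean and does not start at 0). For Pcyt2 both A66 libraries lie below, and all 4 libraries with palmitate above, the untreated ones, and for Chpt1 the 4 libraries with palmitate lie below the other 4.

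The kinases take choline and ethanolamine into the pathway. Chka (ENSMUSG00000024843, GRCm38 chromosome 19, 3851773 to 3894369, plus strand) encodes a choline kinase and had 79.5 and 79.5 CPM without treatment, 68.6 and 77.3 under A66, 83.5 and 76.1 under palmitate, and 77.4 and 70.8 under both. Both A66 libraries thus lay below the untreated pair, and the other comparisons overlapped. Its log2 fold change with A66 was -0.12 (SE 0.052, edgeR adjusted p = 0.300), or -8.12% with a 95% interval from -14.7% to -1.03%, which did not pass after adjustment over 14158 genes. In palmitate-treated cells the A66 difference of Chka was -0.11 (SE 0.057, edgeR adjusted p = 0.397).

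Chkb (ENSMUSG00000022617, chromosome 15, 89426360 to 89429908, minus strand), which encodes the second choline kinase, was at 39.6 and 41.0 CPM without treatment, 39.8 and 44.0 under A66, 36.6 and 39.8 under palmitate, and 39.6 and 43.7 under both. Its groups overlapped in all 4 comparisons, and its largest difference was 0.12 (SE 0.063, edgeR adjusted p = 0.370) for A66 in palmitate-treated cells. In the GENCODE annotation 50.7% of the exon bases of Chkb are shared with Gm44502, a readthrough gene on the same strand that the count table does not list, so its counts are uncertain. Etnk1 (ENSMUSG00000030275, chromosome 6, 143167221 to 143232307, plus strand), the ethanolamine kinase, was the steadiest of the 3, at 251 and 246 CPM without treatment, 253 and 244 under A66, 243 and 247 under palmitate, and 253 and 249.7 under both. Its log2 differences lay between -0.02 and 0.04, and with A66 the 95% interval ran from -5.30% to 6.28%.

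The cytidylyl transferases set the pace of the 2 arms. Pcyt2 (ENSMUSG00000025137, chromosome 11, 120610087 to 120617936, minus strand) makes CDP-ethanolamine. Its values were 105 and 109.95 CPM without treatment, 90.4 and 97.03 under A66, 119.6 and 129.5 under palmitate, and 119.0 and 118.7 under both, from 4469 to 6947 raw counts per library. The A66 pair was the lowest of the 4 groups, the untreated pair lay above it, and the 4 libraries with palmitate were highest, with the pair given both just below the palmitate pair.

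By the treatment labels, on which the sign rests, the Pcyt2 mRNA fell by 12.8% with A66 (log2 fold change -0.20, SE 0.046, 95% interval -0.29 to -0.10, edgeR adjusted p = 0.0240), rank 169 by p among 14158 genes tested. This call was lost without A66 replicate 1 (-0.15, adjusted p = 0.504) and without A66 replicate 2 (-0.25, adjusted p = 0.0566), and over all alternatives its adjusted p ran from 0.000498 to 0.504 with the same sign throughout. In palmitate-treated cells A66 gave a smaller difference of the same sign, -0.07 (SE 0.047, edgeR adjusted p = 0.563), with a 95% interval from -10.8% to 2.13%.

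Pcyt2 was 15.7% higher with palmitate than in untreated cells (log2 fold change 0.21, SE 0.047, 95% interval 0.11 to 0.31, edgeR adjusted p = 0.0273). This call was lost without untreated replicate 1 (0.18) and without palmitate replicate 2 (0.15). With a library left out the difference ran from 0.15 to 0.27. In cells that received both, Pcyt2 was 26.9% higher than with A66 alone (log2 fold change 0.34, SE 0.048, 95% interval 0.24 to 0.44, edgeR adjusted p = 9.72e-05), rank 49 by p among 14587 genes. That difference passed in 18 of 18 alternatives. The test of whether the A66 difference depends on palmitate, the interaction, gave 0.13 for Pcyt2 (SE 0.067, 95% interval -0.0059 to 0.27, unadjusted p = 0.0596, edgeR adjusted p = 0.648), so the A66 differences with and without palmitate are not shown to differ.

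Pcyt1a (ENSMUSG00000005615, chromosome 16, 32430921 to 32475070, plus strand) makes CDP-choline. It was at 107 and 102 CPM without treatment, 103 and 102 under A66, 111 and 107 under palmitate, and 101 and 102 under both. The pair given both lay below the palmitate pair, with a log2 difference of -0.10 (SE 0.042, unadjusted p = 0.0270, edgeR adjusted p = 0.259), and below the A66 pair by a narrow margin (-0.01). With A66 alone its difference from untreated cells was -0.02, with a 95% interval from -7.52% to 4.64%.

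Since Pcyt2 and Pcyt1a catalyse the same step of the ethanolamine and the choline arm, their raw counts were also set against each other within each library, which removes the library scale. Pcyt2 had 0.985 and 1.08 counts per Pcyt1a count without treatment, 0.880 and 0.947 under A66, 1.08 and 1.21 under palmitate, and 1.18 and 1.16 under both. The A66 pair was lowest and the palmitate groups highest, although the lower palmitate library and the higher untreated library were nearly equal. These ratios are given as a description, without a test.

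The phosphotransferases join the activated head group to diacylglycerol. Chpt1 (ENSMUSG00000060002, chromosome 10, 88452745 to 88504073, minus strand), the cholinephosphotransferase of the Golgi, had 374 and 387 CPM without treatment, 407 and 382 under A66, 334 and 345 under palmitate, and 322 and 362 under both. All 4 libraries with palmitate were below all 4 without. Relative to A66 alone the cells given both had 13.4% less Chpt1 mRNA (log2 fold change -0.21, SE 0.049, 95% interval -0.31 to -0.11, edgeR adjusted p = 0.0184). This call was lost without A66 replicate 1 (-0.16, adjusted p = 0.369) and without replicate 1 of the cells given both (-0.13, adjusted p = 0.426), in a range of 1.01e-07 to 0.426 over all alternatives.

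Palmitate alone gave a Chpt1 difference of -0.16 (SE 0.049, unadjusted p = 0.00286, edgeR adjusted p = 0.122), which did not pass, although it did when genes with low counts were kept (-0.16, adjusted p = 0.0136, in a range of 0.0136 to 0.467 over all alternatives). A66 gave Chpt1 differences of 0.06 (SE 0.041, edgeR adjusted p = 0.627) in the absence and 0.01 (SE 0.049, edgeR adjusted p = 0.956) in the presence of palmitate. The ratio of Pcyt2 to Chpt1 counts was 0.281 and 0.284 without treatment, 0.222 and 0.254 under A66, 0.358 and 0.376 under palmitate, and 0.370 and 0.328 under both. The 4 ratios with palmitate lay above the 4 without.

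**Figure D3:**
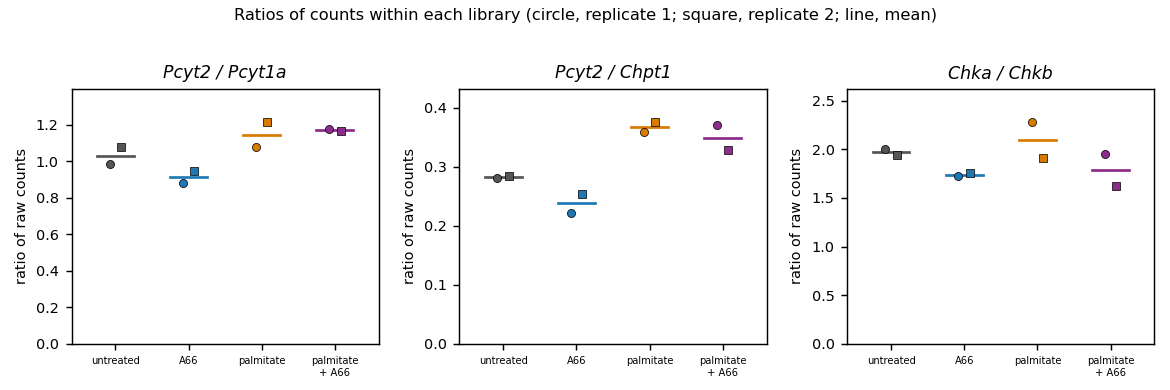
Ratios of raw counts of gene pairs within each library, by group, with circles for replicate 1, squares for replicate 2 and a line at the mean (axes start at 0). Pcyt2 over Chpt1 lies between 0.222 and 0.284 without palmitate and between 0.328 and 0.376 with it. Chka over Chkb overlaps between the palmitate groups, while the A66 pair (1.72 and 1.76) lies below the untreated pair (2.01 and 1.94).

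Cept1 (ENSMUSG00000040774, chromosome 3, 106502260 to 106547802, minus strand) encodes the phosphotransferase that accepts both CDP-choline and CDP-ethanolamine. Its values were 53.6 and 55.6 CPM without treatment, 58.4 and 56.3 under A66, 54.1 and 54.0 under palmitate, and 57.6 and 58.4 under both. The A66 libraries were above their controls with and without palmitate, by 0.10 (SE 0.047, unadjusted p = 0.0434, edgeR adjusted p = 0.325) and 0.07 (SE 0.050, edgeR adjusted p = 0.608), and neither difference passed. In the annotation 24.7% of the exon bases of Cept1 lie opposite exons of Dennd2d, and whether strand was used in the counting is not given in the sources used here.

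Selenoi (ENSMUSG00000075703, chromosome 5, 30232581 to 30272427, plus strand), the ethanolaminephosphotransferase and a selenoprotein, was at 123 and 126 CPM without treatment, 120.4 and 118 under A66, 119 and 121 under palmitate, and 119 and 121 under both. Each treated pair lay below the untreated pair, but by little, with -0.06 for A66 (SE 0.042, edgeR adjusted p = 0.625) and -0.05 for palmitate (SE 0.040, edgeR adjusted p = 0.673). Between the palmitate pair and the pair given both the 95% interval of the difference ran from -5.66% to 5.97%.

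The phosphatidylserine synthases swap a head group for serine, Ptdss1 starting from phosphatidylcholine and Ptdss2 from phosphatidylethanolamine. Ptdss1 (ENSMUSG00000021518, chromosome 13, 66932830 to 66998401, plus strand) was at 60.9 and 63.5 CPM without treatment, 66.6 and 62.3 under A66, 66.9 and 64.1 under palmitate, and 64.8 and 67.7 under both. The palmitate pair lay above the untreated pair by a small margin, with a difference of 0.07 (SE 0.049, edgeR adjusted p = 0.601). Ptdss2 (ENSMUSG00000025495, chromosome 7, 141122382 to 141157606, plus strand) had 40.01 and 42.4 CPM without treatment, 45.0 and 45.2 under A66, 44.4 and 42.8 under palmitate, and 44.9 and 48.0 under both. The untreated pair was the lowest, and the A66 difference was 0.13 (SE 0.055, 95% interval 1.16% to 18.5%, unadjusted p = 0.0267, edgeR adjusted p = 0.298). The number of Ptdss1 counts per Ptdss2 count stayed between 1.38 and 1.52 over the 8 libraries.

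Read by comparison, A66 against untreated asked what inhibition of p110α does to these genes, and 1 of 10 passed, Pcyt2, against 1.84% of all genes tested. For lower genes alone the background was 0.77%. The shares of all genes, here and below, include genes with low counts and were not matched for level. At an unadjusted p under 0.05 there were 3 (Chka, Pcyt2 and Ptdss2), against 12.8%. The groups did not overlap for 5 of 10 genes, against 42.7% of all genes, so this count is near the background. The median log2 difference of the 10 genes was 0.03 and that of all genes -0.0011, while the median size regardless of sign was 0.057 for the 10 genes and 0.048 for the 6081 genes with a mean of at least 30 CPM.

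A66 with palmitate against palmitate repeated the question in cells that also received palmitate. In this comparison 0 of 10 genes passed, against 2.81% of all genes tested, and 2 (Pcyt1a and Cept1) had an unadjusted p under 0.05, against 14.4%. DESeq2 also called 0 of the 10. The groups did not overlap for 5 of 10 genes, against 44.3%, and the median size of the log2 difference was 0.078 for the 10 genes and 0.054 for the genes with at least 30 CPM. The 2 A66 comparisons share no library, and 3 genes lay apart in the same direction in both, Pcyt2 lower and Cept1 and Ptdss2 higher, against 14.6% of all genes (7.58% lower and 7.03% higher). Their separation was narrow for Pcyt2 in palmitate-treated cells, where the nearest libraries had 119.0 and 119.6 CPM.

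Palmitate against untreated asked for the effect of the fatty acid given with albumin. Here 1 of 10 genes passed, Pcyt2, against 1.17% of all genes and 0.631% for higher genes alone. At an unadjusted p under 0.05 there were 2 (Pcyt2 and Chpt1), against 12%. In palmitate with A66 against A66, 2 of 10 passed, Pcyt2 as higher and Chpt1 as lower, against 2.73% of all genes, 1.46% higher and 1.27% lower, and the same 2 had an unadjusted p under 0.05, against 14.6%. The groups did not overlap for 5 of 10 genes in the first comparison, against 40.5%, and for 3 of 10 in the second, against 46.6%. Pcyt2 was apart as higher and Chpt1 as lower in both palmitate comparisons, which share no library, against 14.5% of all genes in either direction (7.45% higher and 7.07% lower). The median size of the difference on the log2 scale was 0.066 for the 10 genes in the first comparison, against 0.049 for the genes with at least 30 CPM, and 0.020 in the second, against 0.055.

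The summed level of the 10 adipocyte markers was lower in every library with palmitate. Scaled by library size, it was 17716 to 18427 CPM in the 4 libraries without palmitate and 15373.5 to 16910 in the 4 with it, and Lpl alone gave 8128 to 9975 CPM of it. Taken singly, 1 of the 10 markers (Lpl) was lower for palmitate against untreated at an edgeR adjusted p under 0.05, against 0.542% of all genes, and 7 were lower for palmitate in A66-treated cells, against 1.27%. For A66, 3 were lower in palmitate-treated cells, against 1.84% of all genes, and 0 against untreated, where 0.77% of all genes were lower. In these 4 comparisons 0 of the markers were higher, while at an unadjusted p under 0.05 A66 against untreated had 4 higher and 2 lower. Pparg, the regulator of fat cell differentiation, passed in none of them and lay between 294 and 323 CPM. The 5 macrophage markers summed to 2.82 to 3.75 CPM without and 4.00 to 5.85 CPM with palmitate, nearly all of it Cd68, while Ptprc had at most 1 count in any library and Adgre1 had 0. The 8 preadipocyte or fibroblast markers summed to 371 to 397 CPM and the 4 endothelial markers to 0.852 to 1.27 CPM. The part of these shifts in the differences of Pcyt2 and Chpt1 was not tested.

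**Figure D4:**
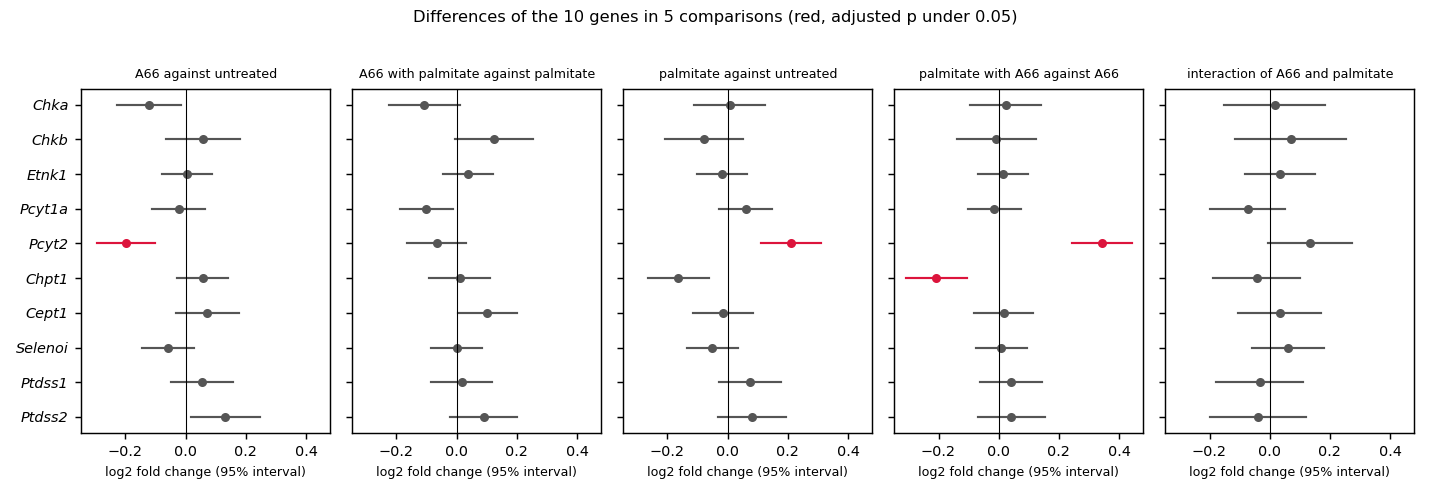
Log2 fold change of each gene with its 95% interval in the 5 comparisons, in red where the adjusted p was under 0.05. Pcyt2 is red in A66 against untreated (-0.20), palmitate against untreated (0.21) and palmitate with A66 against A66 (0.34), Chpt1 in the last of these (-0.21), and no gene in the interaction.

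The interaction was tested for every gene and 0 of the 10 passed, with 0 at an unadjusted p under 0.05, against 0.00686% and 7.92% of all genes. DESeq2 also called 0 of the 10. The values of the 10 genes ran from -0.07 for Pcyt1a to 0.13 for Pcyt2. Their SE lay between 0.056 and 0.089 on the log2 scale.

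Around these enzymes, 55 further genes of phospholipid metabolism were followed in 5 lists, which were drawn up with earlier results of these data known. They cover paralogues and other routes (4 genes), the supply of choline and ethanolamine (16), the supply of diacylglycerol (15), the CDP-diacylglycerol branch, which leads to phosphatidylinositol and cardiolipin (7), and the remodelling of acyl chains (13). Of these, 48 were tested for A66 against untreated and 51 in the other comparisons. The number that passed was 1 for A66 (2.08%, against 1.84% of all genes tested), 2 for palmitate (3.92% against 1.17%), 3 for A66 in palmitate-treated cells (5.88% against 2.81%) and 4 for palmitate in A66-treated cells (7.84% against 2.73%). The medians of the 5 lists lay between -0.07 and 0.11 in these comparisons.

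Neither the paralogues and other routes nor the CDP-diacylglycerol branch had a gene that passed in any comparison. Pcyt1b, the second phosphocholine cytidylyl transferase, had a mean of 6.22 CPM, and Etnk2, the second ethanolamine kinase, 0.171 CPM. Pemt, which methylates phosphatidylethanolamine to phosphatidylcholine, had 9.90 CPM, and its A66 difference was -0.14 (SE 0.10, edgeR adjusted p = 0.631). Pisd, which makes phosphatidylethanolamine from phosphatidylserine in mitochondria, had 20.1 CPM.

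In acyl chain remodelling, Lpcat3, the enzyme that puts polyunsaturated chains into phosphatidylcholine and phosphatidylethanolamine, was lower with A66 in both settings. It had 213 and 208 CPM in untreated cells against 178 and 184 with A66 (-0.21, SE 0.041, edgeR adjusted p = 0.00476), and 219 and 226 with palmitate against 193 and 197 with both (-0.19, SE 0.041, edgeR adjusted p = 0.00883). The first call was lost without A66 replicate 1 (adjusted p = 0.154) or A66 replicate 2 (0.0588), and the second without palmitate replicate 2 (0.111) or either replicate given both (0.107 and 0.0522), within ranges of 2.88e-05 to 0.154 and 0.000425 to 0.111 over all alternatives. Lpcat1, which puts saturated chains into phosphatidylcholine, was lower with palmitate. It had 16.2 and 16.2 CPM in untreated cells against 12.3 and 12.8 with palmitate (-0.37, SE 0.083, edgeR adjusted p = 0.0273), and 16.1 and 16.5 with A66 against 12.8 and 12.2 with both (-0.38, SE 0.084, edgeR adjusted p = 0.0104). The 4 libraries with palmitate lay below the 4 without. Its call for palmitate alone was lost without untreated replicate 1 (0.139), untreated replicate 2 (0.092) or palmitate replicate 1 (0.191), and that in A66-treated cells without each of the 4 libraries compared in turn (0.0635 to 0.103), within ranges of 0.0105 to 0.191 and 0.000482 to 0.103 over all alternatives. Pla2g4a, the cytosolic phospholipase that releases arachidonate, had 69.4 and 74.1 CPM with A66 and 96.1 and 87.4 with both (0.36, SE 0.064, edgeR adjusted p = 0.00184). That call was lost without A66 replicate 1 (0.0731) or replicate 1 given both (0.0625), within a range of 3e-11 to 0.0731 over all alternatives.

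In the supply of diacylglycerol the 2 genes that passed encode glycerol-3-phosphate acyltransferases, which start glycerolipid synthesis. Gpam had 99.97 and 101 CPM in untreated cells and 89.2 and 87.4 with palmitate (-0.19, SE 0.043, edgeR adjusted p = 0.0320). Leaving out any of the 4 libraries compared, or A66 replicate 1, ended this call, with an adjusted p of 0.0505 to 0.120 in a range of 0.0139 to 0.120 over all alternatives. Gpat3 had 132 and 138 CPM with palmitate, 138 and 135 with A66, and 115 and 122 with both. The pair given both was lower than the palmitate pair (-0.19, SE 0.044, edgeR adjusted p = 0.0165) and than the A66 pair (-0.20, SE 0.044, edgeR adjusted p = 0.00995). The first call was lost without palmitate replicate 2 (0.2) or replicate 1 given both (0.247), the second without A66 replicate 1 (0.187) or replicate 1 given both (0.247), within ranges of 0.00177 to 0.247 and 7.16e-06 to 0.247 over all alternatives.

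In the supply of choline and ethanolamine, Sgpl1, the sphingosine-1-phosphate lyase that yields phosphoethanolamine, had 236 and 228 CPM with palmitate and 264 and 258 with both (0.17, SE 0.040, edgeR adjusted p = 0.0172). Gpcpd1, a glycerophosphocholine phosphodiesterase, had 129 and 137 CPM with A66 and 155 and 148 with both (0.19, SE 0.049, edgeR adjusted p = 0.0346). The Sgpl1 call was lost without palmitate replicate 2 (0.161) or either replicate given both (0.174 and 0.0655), within a range of 0.000962 to 0.174 over all alternatives. The Gpcpd1 call was lost without A66 replicate 1 (0.452), without replicate 1 given both (0.332) and with libraries scaled by their size alone (0.0623), within a range of 1.64e-05 to 0.452.

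**Figure D5:**
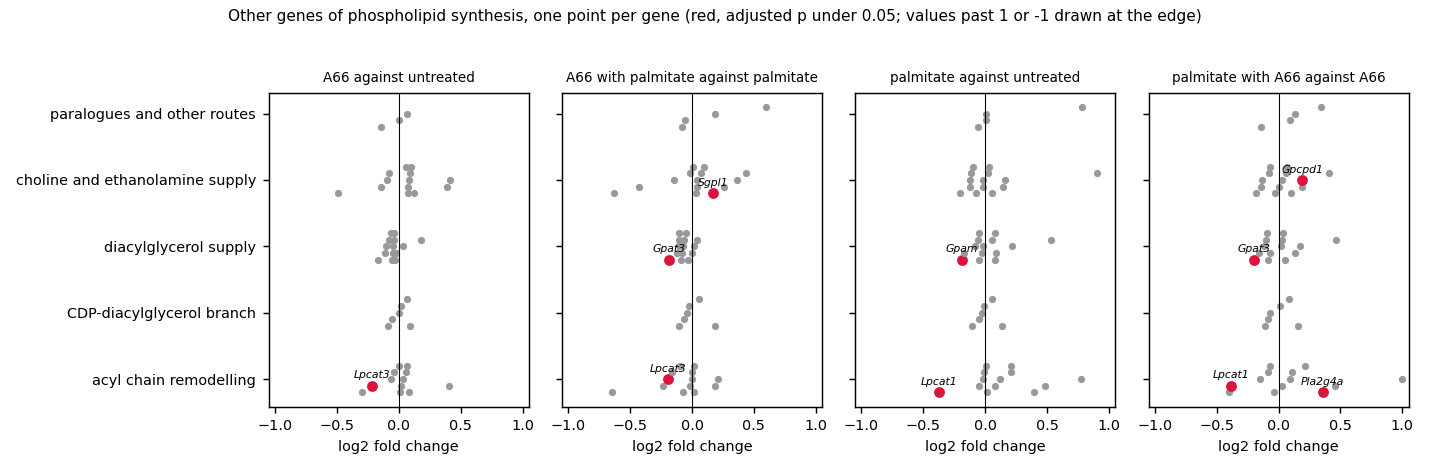
Log2 fold changes of the other phospholipid genes tested in 4 comparisons, with 1 grey point per gene, rows for the 5 lists, and named red points where the adjusted p was under 0.05 (in palmitate with A66 against A66, 1 point beyond the axis is drawn at its edge). The red points are few and lie on both sides of 0.

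Because Pcyt2 moved in 3 comparisons, the genes whose pattern over the 8 libraries was most like it were listed. Among 8955 other genes that averaged 10 CPM or more, the highest Pearson correlations of log2 CPM with Pcyt2 were those of Rae1 (0.981), an mRNA export factor, Slc35e4 (0.976), a member of the solute carrier family, Ucp2 (0.973), a mitochondrial carrier, Gm45837 (0.971), a predicted gene, and Sqle (0.970), the squalene epoxidase of cholesterol synthesis. Of the other 9 genes of the pathway, Chpt1 had a correlation of -0.82, and the other 8 lay between -0.34 and 0.37. These values describe 8 libraries that share their groups, 2 libraries to a group, and say nothing of common control.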

How the data were processed

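The authors aligned reads to GRCm38 with TopHat2 2.0.11 and counted them on Ensembl genes with HTSeq, and the deposited values are these raw counts for 8 libraries of oligo-dT-selected RNA (TruSeq Stranded), without normalization. The annotation and strand setting of the counting are not given in the sources used here. The file also holds the output of the authors' DESeq2 comparison, a log2 fold change deposited with its standard error, p-values, a mean and a statistic (scores), and none of these was used. Every per-sample column was assigned to a sample, from its label.

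Of 43629 gene IDs, 42462 matched a symbol, and coordinates and lengths came from GENCODE M21. In R 4.3.3, counts were TMM-normalized, filtered (filterByExpr, minimum count 10) and tested with edgeR 4.0.16 by quasi-likelihood, two-sided, with Benjamini-Hochberg adjustment over all genes and a threshold of 0.05. A66 against untreated was fitted on its 4 libraries (14158 genes) and the other comparisons on all 8 (14587 genes), which share 1 estimate of the spread. CPM values use the TMM factors of the 8 libraries.

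The 10 genes were named in every comparison, and other pathway genes where they passed, at most 4 per list by smallest p. The genes and lists were chosen with earlier results of these data known. Alternatives were RLE normalization, library size only, DESeq2 1.42.0, keeping all genes with any count, a minimum of 10 counts in each library, another set of libraries in the fit, a replicate block, a loess correction for transcript length (span 0.4), and each library left out. The scripts were tested on simulated data.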

Additional observations from a re-analysis of the deposited data

How the results depend on the processing

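The number of the 10 genes that passed was the same as reported under every alternative that kept all libraries, except that 2 in place of 1 passed for palmitate against untreated when no filter on low counts was applied, the added gene being Chpt1. With each library left out in turn, that number ran from 0 to 1 for A66 against untreated and for palmitate against untreated, and from 1 to 2 for palmitate with A66 against A66, and was 0 throughout for A66 with palmitate against palmitate and for the interaction. A group left with 1 library was assumed to vary like the others. The cause of these changes was not tested. The number of all genes called, 261, 171, 410, 398 and 1 in the order of the comparisons above (A66, palmitate, A66 with palmitate, palmitate with A66, interaction), became 459, 396, 652, 664 and 91 without the filter, and with a library left out ran from 98 to 635, 71 to 245, 147 to 494, 107 to 502 and 0 to 10. The interaction gave 8 with DESeq2, 3 with the replicate block and 2 with library size only. For palmitate with A66 against A66 the 4 libraries alone gave 689. Of the other phospholipid genes, palmitate gave 6 in place of 2 and A66 with palmitate 6 in place of 3 without the filter, and A66 gave 2 in place of 1 under several alternatives.

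The replicate numbers were not shown to pair the libraries. Over 8956 genes, deviations of same-numbered libraries from their group means had correlations of 0.015 to 0.16 in 5 pairs of groups and -0.15 between A66 and palmitate with A66. With the replicate number as a block, 282 genes were called for A66 against untreated, and Pcyt2 was at -0.20. The replicate block changed no call of the 10 genes, with or without a correction for transcript length. With crossed numbers as a block, an alternative chosen after seeing the data, palmitate with A66 against A66 called 1371 genes, 2 of the 10 and 12 of the other phospholipid genes.

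With all libraries kept, the differences that changed sign were small in the reported fit, at most 0.017 in size. Selenoi, -0.00016 for A66 with palmitate, was 0.00025 with RLE normalization, 0.00011 with DESeq2 and 0.0018 with at least 10 counts in every library. With library size only, A66 against untreated gave -0.011 for Etnk1, palmitate against untreated gave -0.0037 for Chka, A66 with palmitate gave -0.0095 for Chpt1 and -0.0020 for Ptdss1, and palmitate with A66 gave -0.0017 for Etnk1 and -0.0071 for Selenoi.

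With a library left out, A66 against untreated ran from -0.013 to 0.13 for Chkb, -0.021 to 0.032 for Etnk1 and -0.053 to 0.0071 for Pcyt1a. Palmitate against untreated ran from -0.063 to 0.074 for Chka and -0.042 to 0.011 for Cept1. A66 with palmitate against palmitate ran from -0.078 to 0.092 for Chpt1, -0.012 to 0.012 for Selenoi and -0.015 to 0.049 for Ptdss1. Palmitate with A66 against A66 ran from -0.062 to 0.11 for Chka, -0.081 to 0.064 for Chkb, -0.011 to 0.040 for Etnk1, -0.0098 to 0.043 for Cept1, -0.0037 to 0.022 for Selenoi, -0.0081 to 0.090 for Ptdss1 and -0.0076 to 0.090 for Ptdss2. The interaction ran from -0.071 to 0.10 for Chka, -0.0031 to 0.14 for Chkb, -0.13 to 0.036 for Chpt1, -0.081 to 0.014 for Ptdss1 and -0.087 to 0.0060 for Ptdss2.

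Each group had 2 libraries, and each of the 10 genes had at least 1681 counts in every library. The SD between replicates ran from 0.017 for Selenoi to 0.090 for Chka on the log2 scale, and it was not compared gene by gene with counting error.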
